A study of Arabidopsis thaliana with 4 samples.

Results

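The genes described here are 8 gibberellin oxidase genes of Arabidopsis thaliana, out of 27444 protein-coding genes on the nuclear chromosomes. They were taken by locus. The 4 synthesis genes were GA20OX1 (AT4G25420), GA20OX2 (AT5G51810), GA3OX1 (AT1G15550) and GA3OX2 (AT1G80340). The 4 breakdown genes were GA2OX1 (AT1G78440), GA2OX2 (AT1G30040), GA2OX6 (AT1G02400) and GA2OX8 (AT4G21200). A peak belonged to a gene when it overlapped the gene body, or the 1000 bp outside either end, by at least 1 bp. Under that rule 7 of the 8 genes had a peak in at least 1 replicate, and 3 had one in every replicate. Of all protein-coding genes, 48.1% had a peak in at least 1 replicate and 18.8% had one in every replicate.

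Phytochrome A (phyA), the photoreceptor that plants use for far-red light, was mapped on chromatin by immunoprecipitation and sequencing (ChIP-seq). Etiolated seedlings 4 days old, which carried a phyA-GFP fusion driven by the PHYA promoter in the phyA201 mutant, were exposed to far-red light for 3 h. An antibody to GFP was used for precipitation in 3 replicates given as biologically distinct, and the transgene, mutant and light treatment were common to all of them. The input sample was not analysed here, nor was any group without far-red light or without the fusion, so a peak shows where ChIP signal was called and not a response to light.

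Gibberellins are hormones that promote stem and hypocotyl elongation and seed germination. The last steps of their synthesis are carried out by the GA20OX enzymes, which oxidise late precursors, and by the GA3OX enzymes, which add the hydroxyl group that makes the hormone active. The GA2OX enzymes add a different hydroxyl group and thereby inactivate the hormone or its precursors. In Arabidopsis seeds, light acting through phytochromes is known to raise GA3OX1 and GA3OX2 transcripts and to lower those of GA2OX2.

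The replicates had separate peak lists, of 7084, 7534 and 6037 peaks, with 11110782, 7702516 and 4951883 reads inside them. How many reads each library held in all was not stated, so depth outside peaks is unknown. The authors' fold enrichment, a linear ratio read as ChIP signal over the caller's background, was never below 2.95 and had a median of 4.38, 3.85 and 3.58 in the 3 lists. Because the lists may differ in scale, each value below is also placed by its percentile within its own list. The absence of a peak means that none was listed, and not that phyA was absent.

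A peak overlapped 5 of the 8 oxidase genes in replicate 1, 4 in replicate 2 and 5 in replicate 3. Over all protein-coding genes the share with a peak was 35.3, 35.7 and 28.1% in those replicates. GA20OX1, GA2OX2 and GA2OX6 had peaks in all 3 replicates, which is 37.5% of the 8 genes beside 18.8% of all protein-coding genes. GA2OX1 had peaks in 2 replicates, while GA3OX1, GA3OX2 and GA2OX8 had a peak in 1 replicate each. GA20OX2 was the gene with none. At least 1 replicate had a peak at 48.1% of all protein-coding genes. Genes are not replicates of a condition, so these shares are a description and were not tested.

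**Figure D1:**
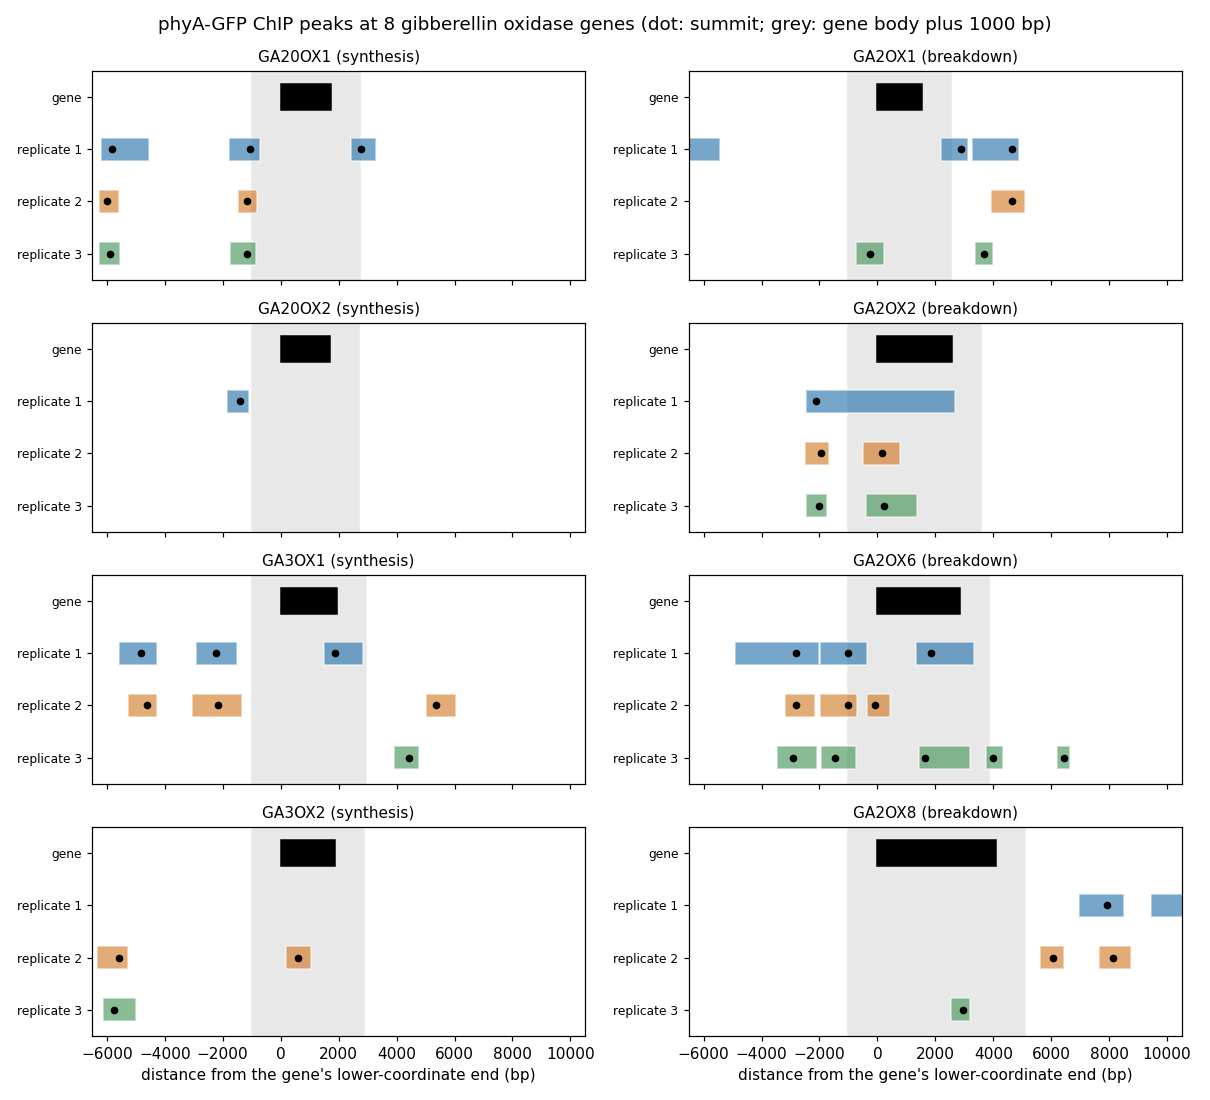
Position of the peaks within 6000 bp of each of the 8 genes, as distance in bp from the gene's lower-coordinate end, with 1 row per replicate, bars for peaks, dots for summits, a black bar for the gene and grey for the gene body plus 1000 bp. The ends of the axis cut off the farthest replicate 1 peaks of GA2OX1 and GA2OX8, whose summits are not shown. At GA20OX1 bars of all 3 replicates cross the left edge of the grey area with their summits just outside it. GA2OX6 also has bars of all 3 replicates across that edge with summits outside it. GA2OX2 and GA2OX6 have bars over the gene itself in all 3 replicates, which at GA2OX6 lie over different ends of the gene in different replicates.

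Among the synthesis genes, GA20OX1, which acts in late precursor oxidation, had a site that all 3 replicates marked. Its peaks lay on chromosome 4 (TAIR10) from 12989080 to 12990130 in replicate 1, from 12989362 to 12990023 in replicate 2 and from 12989105 to 12990004 in replicate 3. The summits were at 12989777, 12989703 and 12989674, so that they fell within 103 bp of each other. Of the 5160 protein-coding genes with peaks in all 3 replicates, 37.3% had summits that close or closer (median 149 bp), counting for each gene the closest set of 3.

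This site stood off the gene. The summits lay 1074, 1148 and 1177 bp outside the lower-coordinate end of GA20OX1, beyond the 1000 bp limit. The peaks reached into that limit by 280, 173 and 154 bp and touched no base of the gene body. GA20OX1 was the nearest annotated gene to each of these summits and the only one whose surrounding 1000 bp the peaks reached.

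The fold enrichment at the GA20OX1 site was 3.72, 4.45 and 4.07 in replicates 1, 2 and 3 (mean 4.08 ± 0.37, SD, n = 3). These values lay at percentiles 22.7, 74.3 and 74.7 of their lists, so replicate 1 was low within its list and the others high. The peaks were short, at 1051, 662 and 900 bp, against list medians of 1477, 1168 and 1117 bp. They held 754, 422 and 460 reads, below the list medians of 1292, 846 and 689. Replicate 1 had a further peak on the other side of the gene, from 12993272 to 12994144, with a summit 1023 bp outside the higher-coordinate end, 714 reads and a fold enrichment of 4.73. Replicates 2 and 3 listed no peak there.

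GA20OX2, the close relative of GA20OX1, had no peak within the limit. The nearest was a peak of replicate 1 on chromosome 5 from 21053309 to 21054080, which ended 1099 bp short of the gene body. It held 675 reads at a fold enrichment of 4.55, with its summit 1413 bp from the gene. GA20OX2 was the nearest annotated gene to it, and replicates 2 and 3 listed nothing within 6000 bp.

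The genes of the last activating step each had a peak in 1 replicate. At GA3OX1 it was in replicate 1, on chromosome 1 from 5345885 to 5347226, and it overlapped 458 bp of the gene. Its summit at 5346251 lay inside the gene, 91 bp from the higher-coordinate end, and the peak held 1076 reads at a fold enrichment of 3.90, percentile 30.0 of the list. At GA3OX2 the peak was in replicate 2, on chromosome 1 from 30200657 to 30201514, and lay wholly inside the gene. It held 601 reads at a fold enrichment of 3.61, percentile 37.2, with its summit 602 bp from the nearer gene end. Both values were below the median of their list.

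Beyond the limit, GA3OX1 had 2 sites on its lower-coordinate side that replicates 1 and 2 shared. The nearer had summits at 5342167 and 5342221, inside the neighbouring gene AT1G15540, and fold enrichments of 5.37 and 4.44. The farther had summits at 5339572 and 5339779 and fold enrichments of 4.67 and 3.26. Replicate 2 also had a peak on the other side, with a fold enrichment of 4.90. Replicate 3 listed no peak at these places. Its only peak within 6000 bp of GA3OX1 was on the other side, with a summit 2470 bp from the gene and a fold enrichment of 3.52.

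Among the breakdown genes, GA2OX2 had peaks over the gene body in all 3 replicates. In replicate 1 a single peak of 5129 bp, at percentile 98.5 of the lengths in its list, ran on chromosome 1 from 10535008 to 10540136 and covered all 2588 bp of the gene. In replicate 2 the peak ran from 10536970 to 10538253 and in replicate 3 from 10537047 to 10538821, overlapping 797 and 1365 bp of the gene. The peaks held 3967, 1131 and 1086 reads. Replicate 1 had both the longest peak and the most reads, and reads per kb of peak were 773, 881 and 612. Library depth is unknown, so the part of peak length in the read counts was not tested.

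The fold enrichment at GA2OX2 was 5.86, 4.72 and 3.14 (mean 4.57 ± 1.37, SD, n = 3), at percentiles 89.2, 81.7 and 16.7 of the lists. Replicates 1 and 2 were high in their lists, and replicate 3 was near the lowest value listed. The summits did not fall together: replicate 1 had its summit at 10535335, 2122 bp outside the lower-coordinate end, while replicates 2 and 3 had theirs inside the gene at 10537606 and 10537681, 149 and 224 bp from that end. The closest set of 3 summits spanned 2346 bp, wider than in most genes with peaks in all 3 replicates, of which 93.6% had a span no larger.

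Outside the limit, replicates 2 and 3 each had a separate short peak at the place where replicate 1 had its summit. Those summits were at 10535511 and 10535432, with fold enrichments of 3.91 and 3.21, and the outer summits of the 3 replicates fell within 176 bp of each other. The long peak of replicate 1 thus covered a stretch that the other replicates divided into an outer site, whose nearest gene was the pseudogene AT1G30030, and a site at the end of GA2OX2. The value of 5.86 belongs to the outer summit, and replicate 1 gives no separate value for the site at the gene.

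GA2OX6 had 7 peaks, more than any other of the 8 genes, with 2, 2 and 3 in the 3 replicates. A site outside its lower-coordinate end was marked in every replicate, on chromosome 1 from 484812 to 486438 in replicate 1, from 484825 to 486099 in replicate 2 and from 484863 to 486043 in replicate 3. The summits of replicates 1 and 2, at 485767 and 485789, lay 22 bp apart, and that of replicate 3, at 485332, lay 435 and 457 bp from them. The summits were 1033, 1011 and 1468 bp outside the gene, and GA2OX6 was the nearest gene to each.

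The fold enrichment at this outer site was 5.20, 5.21 and 3.59 (mean 4.67 ± 0.93, SD, n = 3), at percentiles 77.6, 90.9 and 50.3. Replicates 1 and 2 had nearly equal values and replicate 3 was lower, at about the middle of its own list. The peaks held 1505, 847 and 734 reads over 1627, 1275 and 1181 bp. Among the genes with peaks in all 3 replicates, 68.5% had a lower mean fold enrichment than GA2OX6, 63.3% a lower one than GA2OX2, and 54.3% a lower one than GA20OX1, taking the strongest peak of each replicate. For GA20OX1 the strongest peak of replicate 1 (4.73) lay on the other side of the gene. The mean ranked here was thus 4.42, and not the 4.08 of the shared site. For GA2OX2 the value of replicate 1 was that of the long peak with the outer summit.

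The other peaks of GA2OX6 lay in and around its body. Replicates 1 and 3 had broad peaks over the higher-coordinate part of the gene, from 488131 to 490149 and from 488238 to 490000, with summits 209 bp apart inside the gene. These peaks held 2246 and 985 reads at fold enrichments of 4.62 and 3.31. They also reached the bodies of AT1G02405 and AT1G02410 or the 1000 bp around them, so they cannot be tied to GA2OX6 alone. Replicate 2 listed no peak there and had instead a weak peak across the other end, from 486440 to 487250, with a fold enrichment of 3.06 at percentile 5.79. Replicate 3 also had a short peak from 490559 to 491130 (fold enrichment 3.57) whose summit was nearest to AT1G02410.

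GA2OX1 had peaks in replicates 1 and 3, at opposite ends of the gene. In replicate 1 the peak ran on chromosome 1 from 29513766 to 29514690, with a summit 1330 bp outside the higher-coordinate end, 739 reads and a fold enrichment of 4.45 at percentile 53.0. In replicate 3 it ran from 29510837 to 29511802, with a summit 259 bp outside the lower-coordinate end, 601 reads and a fold enrichment of 3.87 at percentile 65.8. The peak of replicate 3 also reached the body of the neighbouring gene RIP4 (AT1G78430) or the 1000 bp around it. The replicates thus marked no common site within the limit.

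GA2OX8, of the GA2OX class that acts on precursors rather than on the active hormone, had a single peak in replicate 3, on chromosome 4 from 11305221 to 11305864. It lay wholly inside the gene and held 333 reads at a fold enrichment of 3.00, percentile 4.54 of its list and close to the lowest listed value of 2.95. Its deposited false discovery rate was 4.08%, against a highest value of 4.99% in that list. GA2OX8 is the longest of the 8 genes at 4089 bp.

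**Figure D2:**
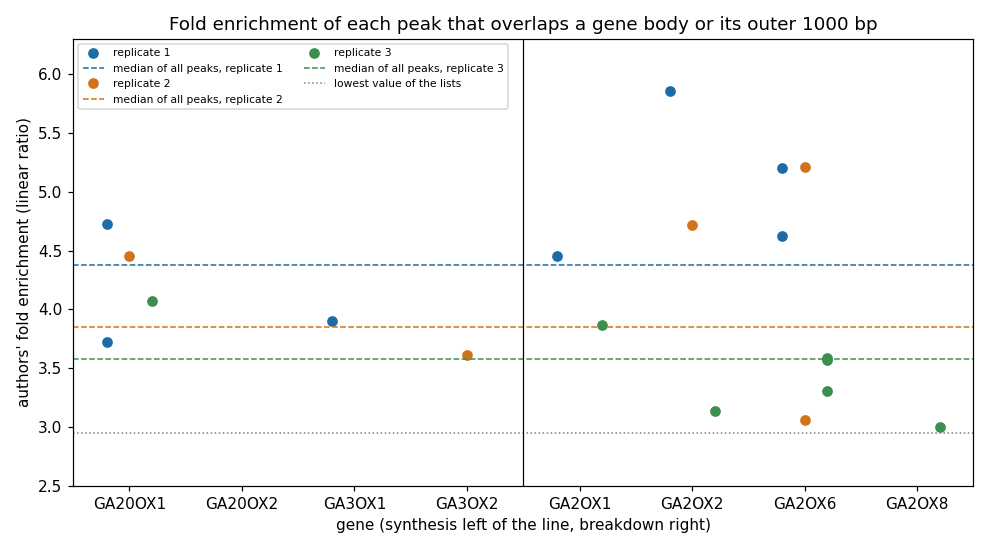
Fold enrichment (linear ratio, as deposited) of each of the 19 peaks at the 8 genes, with 1 dot per peak coloured by replicate, dashed lines for the median of each list and a dotted line at 2.95, the lowest value of the lists. GA2OX2 and GA2OX6 hold the 3 highest dots, up to 5.86, and the dots of replicate 3 at the breakdown genes lie between 3.00 and 3.87.

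Set side by side, the breakdown genes had more peaks than the synthesis genes. Their 4 loci held 13 peaks and the 4 synthesis loci 6. Of the 13, GA2OX6 alone held 7, with 3 at GA2OX2, 2 at GA2OX1 and 1 at GA2OX8. Of the 6, GA20OX1 held 4, and GA3OX1 and GA3OX2 held 1 each. A peak was present in 9 of the 12 combinations of breakdown gene and replicate (75.0%), against 5 of 12 for synthesis (41.7%) and 33.0% over all protein-coding genes. In replicates 1, 2 and 3, peaks were present at 3, 2 and 4 breakdown genes and at 2, 2 and 1 synthesis genes, so replicate 2 showed no difference in number. With 3 replicates an exact two-sided sign-flip test could not give a p below 0.25, and no test was made.

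The share of sequence under peaks differed more than the number of genes. Of the summed gene bodies and 1000 bp flanks, peaks covered 35.0, 12.6 and 28.8% for the breakdown genes in replicates 1, 2 and 3 (mean 25.4% ± 11.6, SD, n = 3). For the synthesis genes they covered 12.7, 6.75 and 1.01% (mean 6.81% ± 5.83). The breakdown share was higher in each replicate, but the lowest breakdown value (12.6% in replicate 2) was about equal to the highest synthesis value (12.7% in replicate 1). Over all protein-coding genes the shares were 12.5, 10.9 and 7.95%.

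Most of the breakdown coverage came from GA2OX2 and GA2OX6. GA2OX2 was covered over 80.2, 28.0 and 38.7% of its body and flanks and GA2OX6 over 54.8, 22.9 and 43.3%. GA2OX1 was covered over 9.46, 0 and 27.3%, and GA2OX8 over 10.6% in replicate 3 alone. Of the synthesis genes, GA3OX1 reached 33.9% in replicate 1 and GA3OX2 22.1% in replicate 2, with 0 in their other replicates, while GA20OX1 had 15.9, 4.63 and 4.12%. GA2OX2, GA2OX6 and GA2OX8 are also longer (2588, 2852 and 4089 bp) than the synthesis genes (1703 to 1955 bp). Genes with peaks in all 3 replicates had a median length of 2345 bp, against 2078 bp for all protein-coding genes. The part of gene length in the contrast was not tested.

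By fold enrichment the peaks of both groups were near the middle of their lists. The fold enrichment of the 13 breakdown peaks ran from 3.00 to 5.86 with a median of 3.87, and that of the 6 synthesis peaks from 3.61 to 4.73 with a median of 3.99. By percentile within the lists the medians were 53.0 and 50.2, close to the middle of all peaks. Replicate 3 held 6 of the breakdown peaks but 1 of the synthesis peaks, and its list had the lowest fold enrichments, so the pooled medians mix unlike lists. Within replicates 1, 2 and 3 the median fold enrichment was 4.91, 4.72 and 3.44 for breakdown and 3.90, 4.03 and 4.07 for synthesis, higher for breakdown in replicates 1 and 2 and lower in replicate 3. By the deposited score and by reads the groups stood further apart: 0 of the 6 synthesis peaks had a score above the median of its list, against 8 of the 13 breakdown peaks, and the counts for reads were the same. The read counts of the synthesis peaks lay at percentiles 5.57 to 34.8 of their lists. The breakdown peaks with reads above the list median were all at GA2OX2 and GA2OX6. By score, the GA2OX1 peak of replicate 3 (305.6) was above its list median of 240.65. The GA2OX6 peak of replicate 3 from 488238 to 490000 (215.58) was below that median, though above the median by reads. The read counts of the GA2OX1 peaks lay at percentiles 10.5 and 39.0 and that of the GA2OX8 peak at 4.23. Breakdown peaks were longer, with a median of 1275 bp against 887 bp, and held a median of 847 reads against 658.

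The position of the summits set several of these calls. Of the 19 peaks, 10 had their summit more than 1000 bp outside the gene they were counted for, 2 had it within the outer 1000 bp and 7 had it inside the gene. The 10 were all 4 peaks of GA20OX1, 4 of the 7 peaks of GA2OX6, including those of its site common to all replicates, and 1 peak each of GA2OX1 and GA2OX2. When the summit itself had to lie in the gene body or the outer 1000 bp, GA20OX1 was counted in 0 replicates and GA2OX2 in 2, and GA2OX6 remained the only gene counted in all 3. It was then counted through different sites, with the summits of replicates 1 and 3 in the higher-coordinate part of the gene (488666 and 488457) and that of the weak peak of replicate 2 outside the other end (486715). That is 12.5% of the 8 genes, beside 14.3% of all protein-coding genes under the same rule. The synthesis genes then had 0 of 4 genes counted in all replicates and the breakdown genes 1 of 4.

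**Figure D3:**
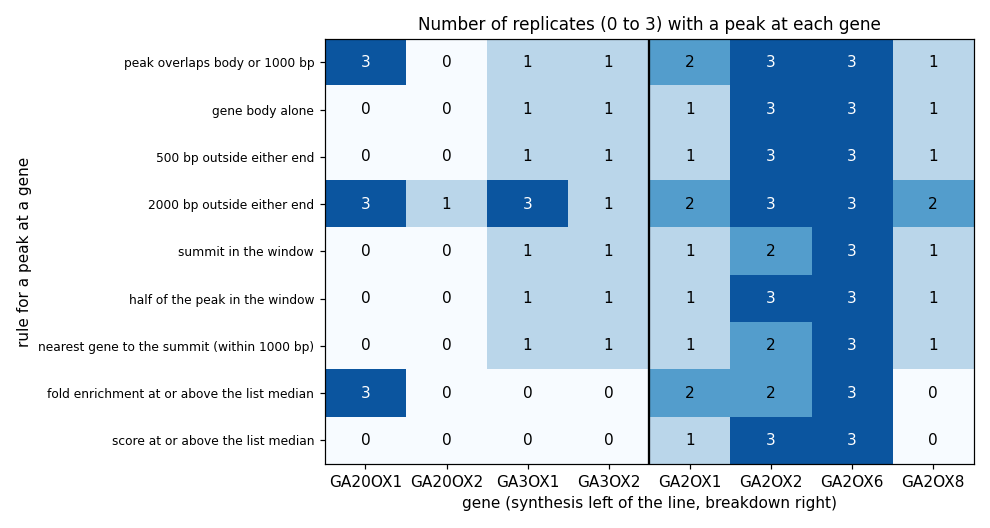
Number of replicates, from 0 to 3, with a peak at each of the 8 genes (columns) under 9 rules for what counts as a peak at a gene (lines), darker for more replicates. GA2OX6 stands at 3 under each rule, but with the gene body alone, 500 bp flanks, or with the summit, 50% of the peak or the nearest gene required, it does so through different sites in different replicates; GA20OX1 goes from 3 to 0 under 6 of the other 8 rules.

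Besides the outer summits at GA2OX2, sites wholly beyond the limit that all 3 replicates marked were present near 3 of the genes. On the lower-coordinate side of GA2OX6, 2804, 2807 and 2926 bp from the gene, the summits lay within 122 bp of each other, with fold enrichments of 6.11, 4.05 and 3.48, and the nearest gene was AT1G02390 (GPAT2). On the higher-coordinate side of GA2OX1, replicates 1 and 2 had the same summit position, 29516189, which is 3089 bp from GA2OX1 and nearer to AT1G78450. Replicate 3 had its summit 962 bp away from it, and the fold enrichments were 4.60, 4.42 and 4.40. On the lower-coordinate side of GA20OX1, summits 5822, 5990 and 5881 bp from the gene lay inside the noncoding RNA gene AT4G07375, with fold enrichments of 4.81, 3.79 and 3.12. In each of these 3 cases another gene was nearer than the oxidase gene.

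The rest of the gibberellin pathway was covered by a list of 24 further genes. Of these, 4 (16.7%) had peaks in all 3 replicates and 12 had none. These counts were near the shares over all protein-coding genes, of which 18.8% had peaks in all 3 replicates and 51.9% had none. Of the 5 other GA20OX and GA3OX genes, 4 had no peak and GA20OX3 had 1, in replicate 2 (fold enrichment 3.76). Of the 3 other GA2OX genes, GA2OX3 and GA2OX4 had peaks in 2 replicates each and GA2OX7 had none. GA2OX4 had its summits inside the gene, at 17700135 in replicate 1 and 17700060 in replicate 2 on chromosome 1, with fold enrichments of 4.45 and 3.42.

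Of the 5 early synthesis genes, GA1, which encodes the enzyme of the first committed step, had peaks in all 3 replicates, with summits inside the gene within 18 bp of each other (1241357, 1241353 and 1241339 on chromosome 4). Only 3.20% of the genes with peaks in all replicates had summits that close or closer. The fold enrichment there was 4.06, 3.06 and 3.68 (mean 3.60 ± 0.50, SD, n = 3), lower than in most such genes, of which 8.45% had a lower mean. KAO2 had peaks in replicates 2 and 3, all with summits inside a neighbouring gene (AT2G32430 or AT2G32450). GA2, GA3 and KAO1 had none. The methyltransferase genes GAMT1 and GAMT2 had none either.

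On the response side, the receptor gene GID1B and the DELLA repressor genes GAI and RGL2 had peaks in all 3 replicates. GID1B had the strongest values of the whole pathway in replicates 1 and 2, at 10.23 and 6.34, and 4.05 in replicate 3, which is above the highest oxidase gene value in replicates 1 and 2 (5.86 and 5.21) and just under that in replicate 3 (4.07 at GA20OX1). The summits of these GID1B peaks lay 955, 998 and 1504 bp outside the gene, which was the nearest gene to each. The peak of replicate 1 also reached NPL41 and the tRNA genes AT3G63003 and AT3G63006, or the 1000 bp around them. The strongest peaks of GAI reached 4.69, 4.67 and 3.63, and those of RGL2 reached 4.58, 5.10 and 3.26. The strongest GAI peaks of replicates 1 and 2 had summits at 5147947 and 5148015, nearer to the noncoding RNA gene AT1G05133 than to GAI. Replicate 3 shared this site through a weaker peak, with its summit at 5148049 and a fold enrichment of 3.36. The strongest GAI peak of replicate 3 was at another site, with its summit inside GAI. Replicates 1 and 2 also had peaks across the higher-coordinate end of GAI, with fold enrichments of 4.32 and 4.02. The summits at RGL2 were nearer to AT3G03460 than to RGL2. SLY1, the F-box gene of DELLA turnover, had peaks in replicates 1 and 3. The summit of replicate 1 lay inside SLY1 and that of replicate 3 inside the neighbouring gene VEP1.

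**Figure D4:**
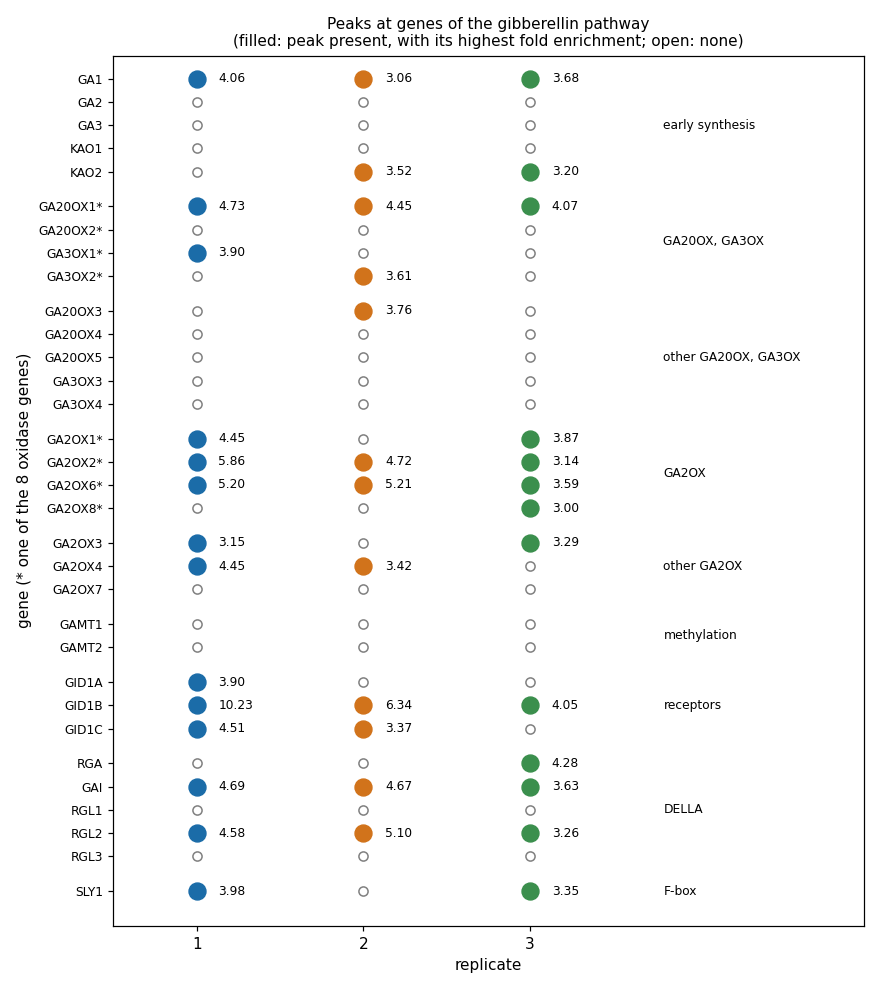
Peaks at 32 genes of the gibberellin pathway by replicate, grouped by role, where a filled circle marks a peak that overlaps the gene body or its outer 1000 bp, the number beside it is the highest fold enrichment (linear ratio) there and an open circle marks no peak. Filled circles in all 3 replicates stand at GA1, GA20OX1, GA2OX2, GA2OX6, GID1B, GAI and RGL2.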

How the data were processed

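Bowtie and the genome build TAIR10 are named in the submitters' processing notes. Which program called the peaks, with which settings and with or without the input, is not given in the sources used here. The authors deposited 1 list per replicate with 9 unnamed columns, read from their values and from the column order of MACS 1.4 tables. The deposited read counts per peak are whole and not normalized, and the deposited score, which rises with peak strength, was used only to rank peaks. Fold enrichment, as deposited, is a ratio on a linear scale. The last deposited column was taken as a false discovery rate in percent. Length equalled end minus start plus 1 in every line, and the summit was taken as start plus the fifth column.

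Gene positions came from the NCBI table of assembly TAIR10.1, whose nuclear coordinates were taken to be those of TAIR10. This was checked on the summits: in replicate 1, 35.1% lay inside protein-coding genes, against 62.4% after a shift of 5000 bp. The table gives no strand, so promoter and downstream sides are not told apart, and the planned motif search was not run because no genome sequence was used here. All 32 pathway genes matched by locus and by name or synonym. Overlaps were counted over all 27444 protein-coding genes in Python 3.11.15 with pandas 2.3.3, and the counting was tested on simulated data. Percentiles are ranks within a list. All peaks of the 8 genes are described, and other named genes are pathway genes from the list or genes that a peak reached or was nearest to. The genes and lists were chosen with earlier results of these data known, and the sites beyond 1000 bp were added after their values were seen. No test between conditions was possible.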

Additional observations from a re-analysis of the deposited data

How the results depend on the processing

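The count of 3 genes with a peak in all replicates became 1 with the summit required in the window and with each summit given only to the nearest protein-coding gene within 1000 bp. It became 2 with the gene body alone, with 500 bp flanks and with at least 50% of the peak in the window. With fold enrichment or score at or above the list median it was also 2, and with flanks of 2000 bp it was 4. The 2 breakdown genes became 1 with the summit rule, with the nearest-gene rule and with fold enrichment at or above the list median. The 1 synthesis gene became 0 with the gene body alone, with 500 bp flanks, with the summit or at least 50% of the peak required in the window, with the nearest gene within 1000 bp (its summits lay 1074, 1148 and 1177 bp away, although it was the nearest gene) and with scores at or above the list median. It became 2 with flanks of 2000 bp, where GA3OX1 was added through different sites in different replicates. Genes with a peak in at least 1 replicate fell from 7 to 4 with the fold enrichment limit and to 3 with the score limit. The same share over all protein-coding genes was not counted under these limits. The share of all protein-coding genes with peaks in every replicate went from 18.8% to 7.09% with the fold enrichment limit. It was 9.06% with the nearest gene within 1000 bp and 9.48% with the score limit. With the gene body alone it was 13.4%, with 500 bp flanks 16.2% and with flanks of 2000 bp 24.3%. With at least 50% of the peak in the window it was 14.0%, and with the summit required there 14.3%. These rules count fewer peaks or a smaller or larger window by construction. Leaving out each replicate in turn gave 3 to 4 genes in all, 2 to 3 breakdown genes, 1 synthesis gene and 21.4 to 26.8% of all genes. The mean fold enrichment at GA2OX6 was 3.66 when the peak with the summit nearest to the gene was used, against 4.67 for the strongest. These means belong to different sites. The 4.67 is that of the outer site common to all replicates. The 3.66 mixes peaks over the higher-coordinate part in replicates 1 and 3 with the weak peak across the other end in replicate 2. At GA20OX1 the mean was 4.42 with the strongest peak of each replicate and 4.08 at the site that all replicates shared. The 4.08 is an alternative chosen after seeing the data. No paired analysis was possible because the 3 replicates form 1 group and no other group was analysed. Library depth is unknown, so a gene without a listed peak may lie below what a list could show.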
